A study of Mus musculus with 768 samples.

Results

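A set of 9 genes of antigen presentation and interferon response was followed through single cancer-associated fibroblasts (CAFs) of mouse mammary tumors. They were taken from the tables by symbol: B2m, H2-K1 and H2-D1, which encode the MHC class I molecule, Tap1 and Psmb8, which supply it with peptides, and the interferon-induced genes Slfn5, Isg15, Ifit3 and Ifit1. All 9 symbols were found among the 24490 endogenous genes of the expression tables, 17235 of which had a read in at least 1 of the wells kept. The host strain was FVB/N-Tg(MMTVPyVT)634Mul/J at 14 weeks of age, in which the MMTV promoter drives the polyoma virus middle T antigen in mammary epithelium, so that every cell came from a tumor-bearing host and there was no untreated or tumor-free group. Living cells negative for EpCAM, CD45, CD31 and NG2 were sorted singly into 2 plates of 384 wells, 1 tumor to each plate, and sequenced by Smart-seq2, a full-length method without molecular identifiers. A well was kept with at least 10000 reads that were not from the ERCC spike-ins, which left 727 of 768 wells, 373 of tumor 1 and 354 of tumor 2.

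MHC class I molecules carry peptides from the inside of the cell to its surface, where CD8 T cells inspect them. The heavy chain (H2-K1, H2-D1) pairs with the light chain beta-2-microglobulin (B2m), the immunoproteasome subunit Psmb8 helps to cut the peptides, and the transporter subunit Tap1 brings them into the endoplasmic reticulum. Nearly all nucleated cells make class I molecules at rest, and interferons raise them further. Isg15, a ubiquitin-like protein, and the Ifit proteins, which bind foreign RNA, are by contrast made mainly once interferon has acted, through a promoter element called the ISRE, and Slfn5 is a Schlafen family gene that interferon also induces.

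The 9 genes lie on 5 chromosomes in GRCm38.p6, the assembly behind the mm10 build of the tables, and RefSeq lists each as protein coding. B2m lies at chr2:122147687-122153082, Isg15 at chr4:156199424-156200818 and Slfn5 at chr11:82951349-82964850. Ifit3, at chr19:34583119-34588982, neighbors Ifit1, at chr19:34640889-34650009. H2-K1 (chr17:33996012-34000619), Tap1 (chr17:34187556-34197225), Psmb8 (chr17:34198195-34201454) and H2-D1 (chr17:35263094-35267497) belong to the MHC region. The letters GAAANNGAA, the core of the ISRE, were looked for on both strands of RefSeq promoters, from 250 bases before to 50 bases after each listed start. They were found in 5 of the 9 genes (B2m, Slfn5, Isg15, Ifit3 and Ifit1), against 9.76% of the 27025 genes with a promoter in the reference. A form with the GAAA and GAA parts swapped, GAANNGAAA, was added after the promoters had been seen. Either form was present in 7 of the 9, against 16.8% of genes, the further genes being H2-K1 and H2-D1. The 2 forms can overlap in a stretch of consecutive repeats. Neither form was found in these windows of Tap1 and Psmb8. The start used is the one RefSeq lists with each promoter, which for Slfn5, H2-K1 and Ifit3 lay inside the span of the gene given above. For H2-K1, with 2 listed starts, the one farther upstream is shown. The 170 bases before the start are printed for 3 genes read in a minority of the wells (Isg15, Ifit3, Ifit1) and for 3 read in a majority of them (B2m, H2-K1, Slfn5), with every match in capitals.
B2m, chr2:122147517-122147686, plus strand: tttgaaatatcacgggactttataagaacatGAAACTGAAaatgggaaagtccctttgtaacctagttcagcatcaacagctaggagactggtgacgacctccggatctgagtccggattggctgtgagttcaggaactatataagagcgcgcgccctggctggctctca
H2-K1, chr17:34000348-34000517, minus strand: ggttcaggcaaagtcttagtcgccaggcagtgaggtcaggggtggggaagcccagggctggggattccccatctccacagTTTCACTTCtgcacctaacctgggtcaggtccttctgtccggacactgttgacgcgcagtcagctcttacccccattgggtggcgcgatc
Slfn5, chr11:82951932-82952101, plus strand: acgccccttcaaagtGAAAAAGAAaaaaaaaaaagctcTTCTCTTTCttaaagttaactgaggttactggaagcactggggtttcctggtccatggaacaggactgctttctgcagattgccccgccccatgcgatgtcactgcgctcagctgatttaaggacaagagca
Isg15, chr4:156200819-156200988, minus strand: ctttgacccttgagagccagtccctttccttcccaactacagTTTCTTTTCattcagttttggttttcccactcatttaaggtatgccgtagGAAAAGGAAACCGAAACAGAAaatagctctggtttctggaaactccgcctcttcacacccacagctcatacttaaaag
Ifit3, chr19:34583359-34583528, plus strand: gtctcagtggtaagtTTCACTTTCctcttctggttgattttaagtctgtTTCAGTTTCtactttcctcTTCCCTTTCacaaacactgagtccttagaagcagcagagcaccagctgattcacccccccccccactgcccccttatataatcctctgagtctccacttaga
Ifit1, chr19:34640719-34640888, plus strand: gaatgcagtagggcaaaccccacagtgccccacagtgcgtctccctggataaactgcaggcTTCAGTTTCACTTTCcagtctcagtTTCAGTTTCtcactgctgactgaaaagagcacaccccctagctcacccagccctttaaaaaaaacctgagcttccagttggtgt
Isg15, Ifit3 and Ifit1 each held 3 matches to GAAANNGAA, Slfn5 held 2 and B2m held 1. In Isg15 and Ifit1 neighboring matches shared bases. In H2-D1, which is not printed, the single match, to GAANNGAAA, began 150 bases before the start. A match is a description of letters and not of a bound factor.

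The kept wells had 10281 to 1190516 endogenous reads, with medians of 219264 in tumor 1 and 198180 in tumor 2, and a median of 4253 and 4491 detected genes. With 1 tumor to a plate, tumor and plate cannot be told apart, and nothing in the samples' descriptions repeats a tumor, so that errors and tests below are over the 2 tumors, and cells of a tumor do not count as replicates. The wells fell into 4 populations named from markers and 16 wells left unnamed. A vCAF-like population, led by Rgs5, Higd1b and Kcnj8, held 495 wells. An mCAF-like population, led by Dcn, Mfap5 and Lum, held 144. A cCAF-like population of cycling cells held 43 and a dCAF-like population, led by Trf, Mia and Igfbp5, held 29. Of the fixed dCAF-like markers Scrg1, but not Sox9 or Sox10, was among the leading genes. All 43 cCAF-like wells belonged to the vCAF-like population at the clustering distance chosen first, and were taken out of it at a smaller distance after the clusters had been seen. The 9 genes were not used for clustering. Markers of other cells were read in a minority of wells although the sort should remove those cells, immune markers in 26.8% and 18.6% of the wells of tumors 1 and 2, endothelial markers in 7.24% and 6.78%, and epithelial markers in 20.6% and 29.1%. The immune markers included Cd74, H2-Aa, H2-Ab1 and H2-Eb1, genes of MHC class II presentation, which were not counted apart from the others. Whether reads of these genes came from immune cells was not tested. No doublet caller was run.

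The class I genes were read in nearly every cell at high levels. B2m had a read in 727 of 727 wells, H2-D1 in 711 and H2-K1 in 701. On a level per transcript length, RPKM (reads per kilobase of transcript, scaled to the sequencing depth), B2m ranged in tumor 1 from 23.6 over a median of 1635 to 10287, and in tumor 2 from 12.5 over a median of 2010 to 41878. H2-D1 ranged from 0 over a median of 998 to 5559 RPKM in tumor 1 and from 0 over a median of 1033 to 6700 in tumor 2. For H2-K1 the medians were 222 and 253 RPKM and the highest wells 2205 and 2493. For each of the 3 genes the median of either tumor lay within the interquartile range of the other, while the highest B2m well of tumor 2 stood far above that of tumor 1.

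Wells without a read of a class I heavy chain were few. All 16 wells without H2-D1 had fewer than 50000 reads, and 6 of them were unnamed wells. Of 26 wells without H2-K1, 14 had fewer than 50000 reads, and the deepest had 243860. When each well was thinned to 50000 reads and shallower wells were left out, H2-D1 was read in 100% of the wells of both tumors and H2-K1 in 97.2% and 96.0%. The well with the highest B2m level, a cCAF-like well of tumor 2, held 1878 B2m reads among 45693, and the next highest stood at 12437 RPKM. Leaving that well out changed the mean B2m level of tumor 2 from 2639 to 2528 RPKM.

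Psmb8, Slfn5 and Tap1 were read in a part of the cells. Psmb8 had a read in 250 of 373 wells of tumor 1 (67.0%, 62.0 to 71.8, exact 95% binomial interval) and in 242 of 354 wells of tumor 2 (68.4%, 63.2 to 73.2). Its median was 43 RPKM in tumor 1 and 46.0 in tumor 2. Intervals of this kind cover counting error over wells and not the difference between animals. Slfn5 was read in 198 wells of tumor 1 (53.1%, 47.9 to 58.2) and also in 198 of tumor 2 (55.9%, 50.6 to 61.2), with highest levels of 244 and 164 RPKM. Tap1 was read in 107 wells (28.7%, 24.1 to 33.6) and 119 wells (33.6%, 28.7 to 38.8). Its median was 0 RPKM in both tumors and 24.5 among the wells with a read. For these 3 genes the intervals of the tumors overlapped.

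Isg15, Ifit3 and Ifit1 were at 0 in most cells and high in a few. Isg15 was read in 61 wells of tumor 1 (16.4%, 12.7 to 20.5) and 79 of tumor 2 (22.3%, 18.1 to 27). Ifit3 was read in 19 wells (5.09%, 3.09 to 7.84) and 24 wells (6.78%, 4.39 to 9.92). Ifit1 was read in 12 wells (3.22%, 1.67 to 5.55) and 31 wells (8.76%, 6.03 to 12.2), the one gene of the 9 for which these intervals did not overlap. With 1 tumor on each side the difference between tumors was not tested. Isg15 went up to 1232 RPKM in tumor 1 and 2184 in tumor 2, above the median of H2-D1 in the same tumors. Ifit3 reached 389 and 350 RPKM and Ifit1 538 and 430, above the median of H2-K1 but below those of H2-D1 and B2m.

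Most of these wells did not rest on single reads. The median number of reads in a well with the gene was 23 for Ifit1, 15 for Ifit3 and 12 for Isg15, with highest values of 527, 289 and 422. A single read was all that was seen in 8 of 43 wells with Ifit1, 6 of 43 with Ifit3 and 13 of 140 with Isg15. Over both tumors the 10 richest wells held 77.7% of the Ifit1 reads, 73.4% of the Ifit3 reads and 51.6% of the Isg15 reads. For comparison, the 10 richest wells held 12.2% of the Psmb8 reads and 13.8% of the Slfn5 reads. In the thinned wells Isg15 was read in 13.8% and 19.9%, Ifit3 in 4.24% and 6.44%, and Ifit1 in 2.26% and 7.67% of the wells of tumors 1 and 2.

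**Figure D1:**
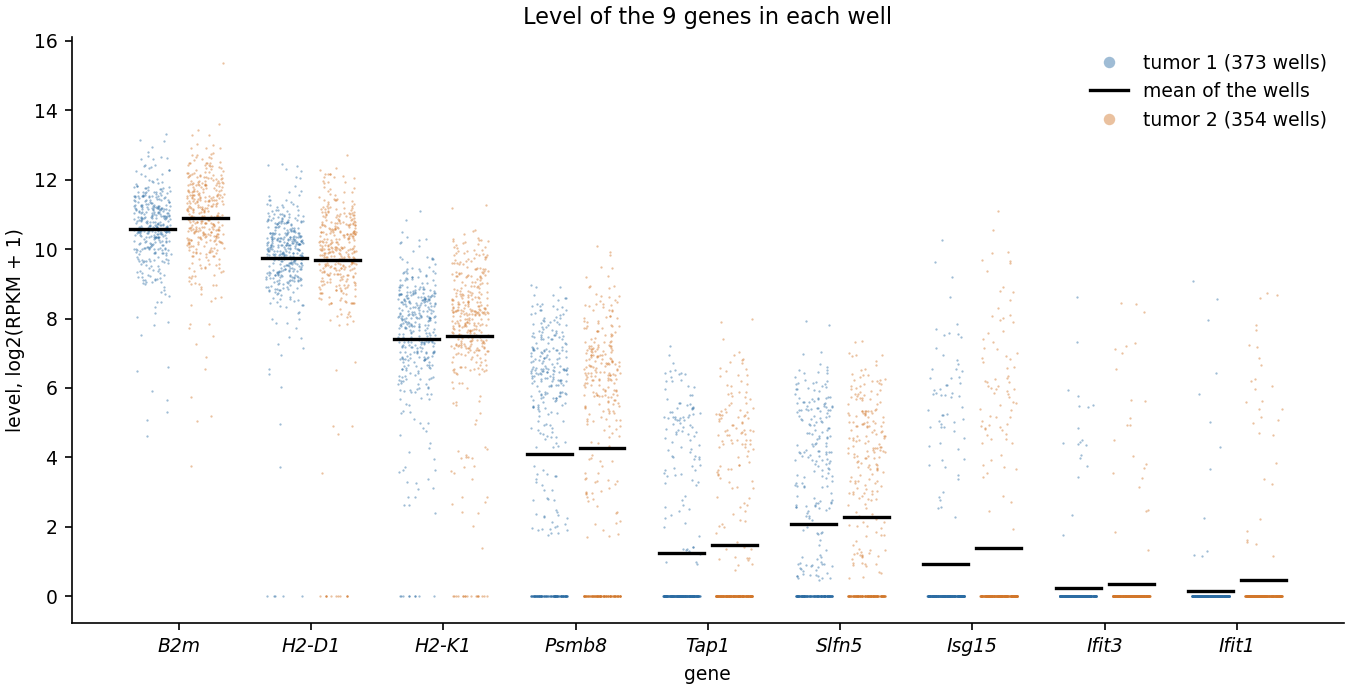
Level of each gene in each well as log2(RPKM + 1), with 1 point per well and a black line at the mean, for 373 wells of tumor 1 (blue) and 354 of tumor 2 (orange). B2m, H2-D1 and H2-K1 form a band above 0 in both tumors, while Isg15, Ifit3 and Ifit1 lie at 0 in most wells and reach up to 2184 RPKM in the others.

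Ordered by the mean level over wells, given as the mean ± SD of the 2 tumors, B2m stood at 2302 ± 477 RPKM, H2-D1 at 1216 ± 96.2, H2-K1 at 314 ± 49.1 and Psmb8 at 83.1 ± 11.3. Isg15 followed at 30.7 ± 18.8, Slfn5 at 15.3 ± 0.94, Tap1 at 10.4 ± 2.28, Ifit1 at 5.81 ± 3.01 and Ifit3 at 4.06 ± 2.00. Isg15 and Slfn5, Isg15 and Tap1, Tap1 and Ifit1, and Ifit1 and Ifit3 were closer than the sum of their SDs. The order by the share of wells with a read was another one, with Slfn5 (54.5% ± 2.01) and Tap1 (31.2% ± 3.49) ahead of Isg15 (19.3% ± 4.22). B2m, H2-D1 and H2-K1 were read in at least 90% of the wells of both tumors, a property of 331 of the 17235 genes with a read (1.92%). Ifit3 and Ifit1 were read in fewer than 10% of the wells of both tumors, which held for 41.1% of these genes.

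Sequence shared with other genes bears on some of these levels. Of the 43-base words in the transcripts of Ifit3, 54.5% also occurred in those of its near-identical neighbor Ifit3b, which has no row of its own here, so that reads from this shared part could not be told apart and Ifit3 values are uncertain. The share was 17.2% for H2-D1 and 13.1% for H2-K1, most of it with other class I heavy chains, 12.4% for Psmb8, 11.8% for Slfn5, 8.11% for Ifit1, 6.86% for Isg15, 3.59% for Tap1 and 0% for B2m. Reads came from FVB mice and were aligned to the reference genome, and whether the class I alleles of the strain aligned equally well was not tested.

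The variation between wells exceeded that of the spike-ins for the class I genes too. The squared coefficient of variation, divided by that fitted to ERCC spike-ins of the same mean, was 6.61 for B2m in tumor 1 and 17.1 in tumor 2, against 1.44 and 1.22 for the median gene. In reads scaled to the same total per well, B2m had means of 428 and 527, against 7.99 and 7.39 for the median gene. B2m was not compared with genes of like mean. Without the well of the highest B2m level the ratio in tumor 2 was 8.97. It was 3.07 and 3.35 for H2-K1 and 3.01 and 3.21 for H2-D1. Ifit1 stood at 6.37 and 3.55, Isg15 at 2.23 and 3.33, Ifit3 at 2.64 and 2.45, and Slfn5 at 2.73 and 2.18. For Tap1, with 1.05 and 1.32, and for Psmb8 in tumor 1, with 1.17, the spread was close to that of spike-ins of the same mean. In tumor 2 Psmb8 stood at 2.18.

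Isg15, Ifit3 and Ifit1 were read together in some wells and alone in more. A read of Ifit1 or Ifit3 was present in 68 wells, 25 of tumor 1 and 43 of tumor 2, and 18 of them had both genes, 6 and 12 in the respective tumors, while 25 had Ifit1 alone of the pair and 25 Ifit3 alone. Isg15 was read in 41 of the 68 wells and in 17 of the 18 with both. In 99 further wells Isg15 was read without either Ifit gene. Over all 727 wells, 560 had none of the 3 genes, 125 had 1, 25 had 2 and 17 had all 3, whereas B2m, H2-D1 and H2-K1 were all read in 695. Across wells the rank correlation of Ifit3 with Ifit1 was 0.38 in tumor 1 and 0.41 in tumor 2, that of Isg15 with Ifit1 0.29 and 0.38, and that of H2-K1 with H2-D1 0.42 and 0.59. Within populations the values rested on few wells. In tumors 1 and 2, Ifit3 was read in 8 and 14 vCAF-like wells and Ifit1 in 6 and 14. Among mCAF-like wells Ifit3 was read in 10 and 7 and Ifit1 in 6 and 11. All 3 genes together were read in 1 and 6 vCAF-like wells and in 5 and 4 mCAF-like wells. In vCAF-like wells the correlation of Ifit3 with Ifit1 was 0.12 in tumor 1 and 0.48 in tumor 2, that of Isg15 with Ifit1 0.19 and 0.40 and that of Isg15 with Ifit3 0.08 and 0.38. In mCAF-like wells (77 and 67) these were 0.63 and 0.42, 0.44 and 0.34, and 0.58 and 0.51. Those without a named population run over 373 and 354 wells, those of vCAF-like wells over 261 and 234, and in each case the wells of a tumor share a plate, a library preparation and differences in depth. They are descriptions without a test, and for Ifit3 and the heavy chains reads of shared sequence enter them.

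In tumor 1 the 3 wells with the most Ifit1 reads were mCAF-like. Well O19 held 527 Ifit1, 289 Ifit3 and 346 Isg15 reads among 361015, well E8 held 328, 29 and 200 among 324194, and well I5 held 189, 16 and 128 among 278878. In the same wells B2m had 549, 559 and 365 reads, so that in O19 the Ifit1 reads nearly equaled those of B2m. In tumor 2 the richest well, A13, was vCAF-like, with 347 Ifit1, 214 Ifit3 and 181 Isg15 reads among 287977. It was followed by the mCAF-like well L20 with 276 Ifit1 reads and the vCAF-like wells N2 and E6 with 242 and 178. These wells were picked out after their values were seen.

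**Figure D2:**
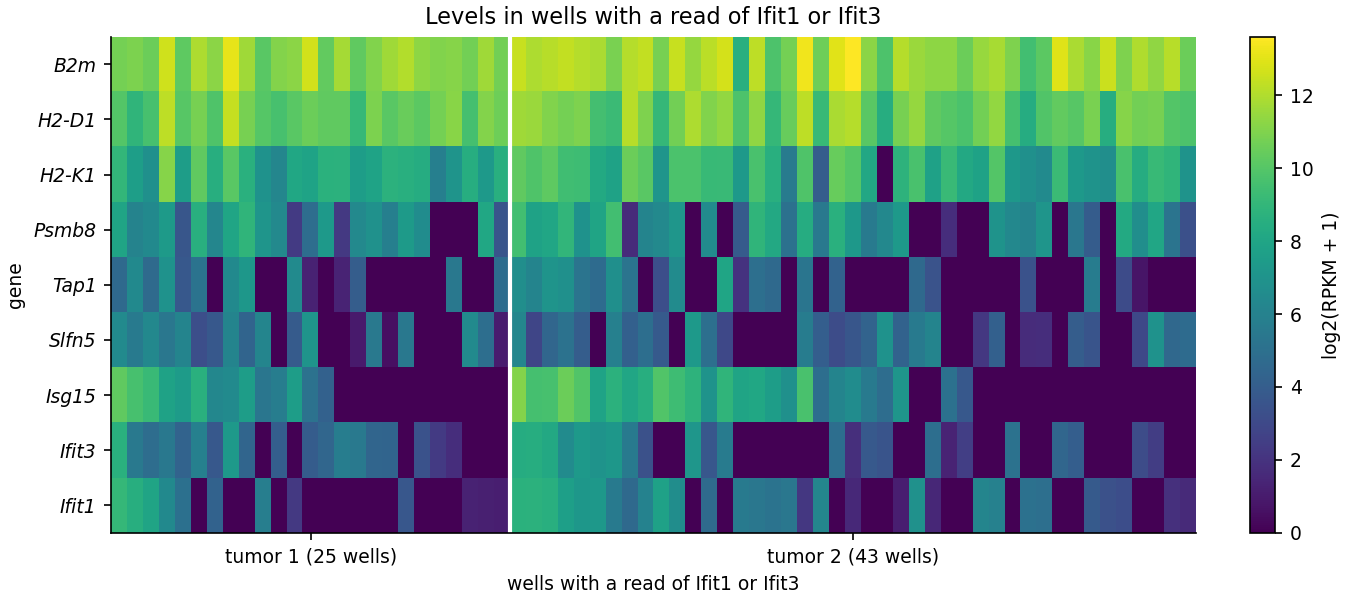
Levels of the 9 genes, as log2(RPKM + 1) in color, in the 68 wells with a read of Ifit1 or Ifit3, 1 column per well, 25 wells of tumor 1 on the left and 43 of tumor 2 on the right of the white line. B2m and H2-D1 are present in every column, while Isg15 is read in 41 of them and both Ifit genes in 18.

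Wells with several of the on-off genes also had reads of more other interferon genes. Of a list of 48 other genes known to respond to type I interferon, the median number read was 11 in the wells with none of Isg15, Ifit3 and Ifit1 in tumor 1 (301 wells, 2 to 20 genes) and 11 in tumor 2 (259 wells, 3 to 25 genes). It was 26.5 in the 14 wells of tumor 1 with 2 or 3 of them (15 to 39 genes) and 22.5 in the 28 such wells of tumor 2 (10 to 43 genes). The ranges overlapped. Since the wells were sorted by genes of the same response, this is a description of reads occurring together and carries no test. Median depth also differed, with 335012 and 209825 reads in the wells with 2 or 3 genes and 206667 and 189754 in those with none. In wells thinned to 50000 reads the medians were 23 and 21 genes against 10 and 10, and 11 and 11 in wells with 1 gene.

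Single genes followed the same pattern to different degrees. Rtp4, a chaperone of receptors that interferon induces, was read in 13 of the 14 and 23 of the 28 wells, against 11% and 13.5% of wells with none of the 3 genes. The antiviral GTPase Mx2 was read in 9 of 14 and 12 of 28 wells, against 1.66% and 2.70%. Usp18, which removes Isg15 from proteins, was read in 6 of 14 and 15 of 28 wells, against 3.32% and 2.32%. Ifitm3, an antiviral membrane protein, was read in all 14 and all 28 wells but also in 97.3% and 98.1% of the others. These 4 genes were named after their values had been seen. Of 24 genes of the interferon gamma response, such as the guanylate-binding proteins, medians of 8.5 and 9 were read in wells with 2 or 3 of the on-off genes and 2 in those with none in each tumor.

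Genes of class I presentation were examined in the same wells. Of 28 other genes of class I presentation, a median of 15 in tumor 1 and 15.5 in tumor 2 were read in the wells with 2 or 3 on-off genes, against 12 and 11 in the wells with none. Tap1 was read in 10 of the 14 and 17 of the 28 wells, against 24.6% and 28.2%. Psmb8 was read in 14 of 14 and 24 of 28, against 64.5% and 64.5%, and Slfn5 in 12 of 14 and 20 of 28, against 50.8% and 53.7%. The median B2m level was 2269 and 4122 RPKM in the wells with 2 or 3 genes and 1610 and 1874 in those with none. For H2-K1 it was 324 and 600 against 211 and 239 RPKM, and for H2-D1 1110 and 1769 against 953 and 1000. The interquartile ranges of the B2m levels overlapped, from 1541 to 3748 against 1033 to 2407 RPKM in tumor 1 and from 1873 to 5169 against 1179 to 3120 in tumor 2. The populations were mixed unequally, since 9 of the 14 wells of tumor 1 were mCAF-like, against 51 of the 301 with none. Among vCAF-like wells of tumor 1 (4 wells against 219) the medians were 4310 against 1613 RPKM for B2m, 684 against 205 for H2-K1 and 2988 against 986 for H2-D1. In tumor 2 (15 against 184) they were 3954 against 2010, 581 against 247 and 1822 against 1134. Among mCAF-like wells the B2m medians were 1960 against 1507 in tumor 1 (9 against 51) and 4310 against 1801 in tumor 2 (8 against 40), and those of H2-D1 1089 against 826 and 2014 against 775. Immune markers were read in 4 of the 14 and 7 of the 28 wells, against 24.9% and 19.7%, endothelial markers in 2 of 14 and 3 of 28, against 6.64% and 5.79%, and epithelial markers in 6 of 14 and 8 of 28, against 21.3% and 29.0%. Of the 11 immune markers, 8 were at 0 in the 14 wells and 7 in the 28 wells. The part of these markers in the pattern was not tested.

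**Figure D3:**
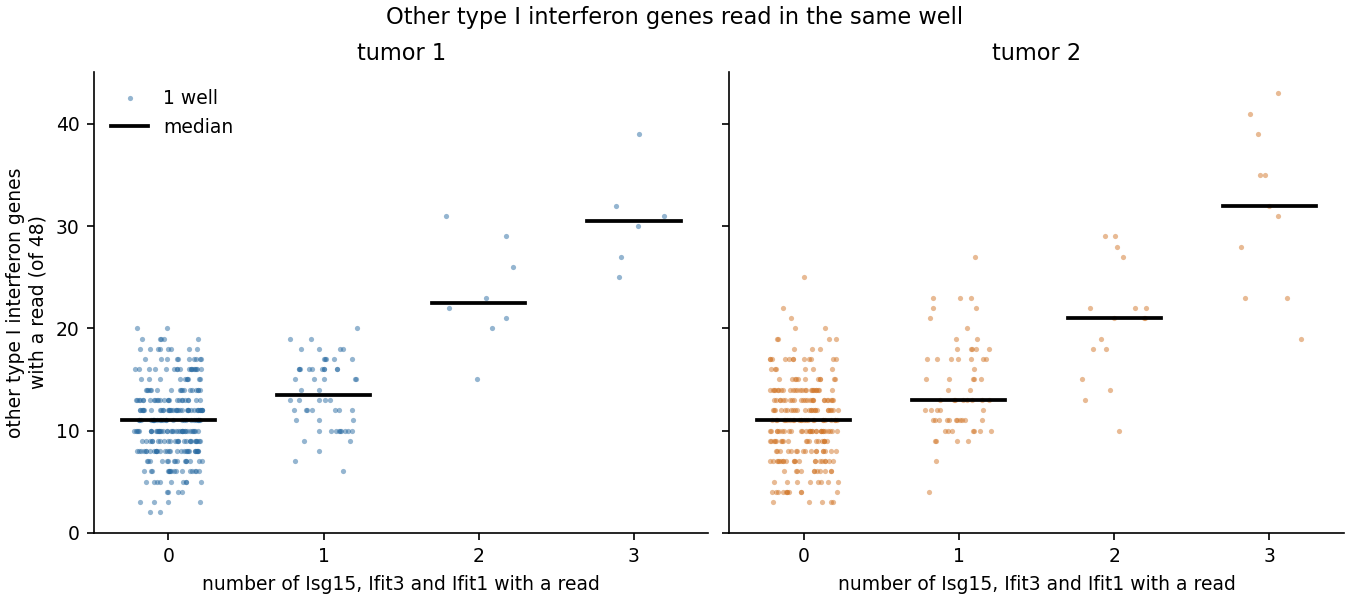
Number of other type I interferon genes with a read in a well, of 48 (vertical axis), by how many of Isg15, Ifit3 and Ifit1 had a read in it (horizontal axis), with 1 point per well and a line at the median, in tumor 1 (left) and tumor 2 (right). Wells with none of the 3 genes had a median of 11 in both tumors. Those with 1 had 13.5 in tumor 1 and 13 in tumor 2, and those with 2 or 3 had 26.5 and 22.5.

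Transcripts of the receptors were common and those of the ligands were not detected or rare. Of 20 genes of interferon alpha, beta, gamma, kappa and the other interferons looked for, 19 had no read in any of the 727 wells, which allows a share of wells with a read of up to 0.413% for each, counting error only. Ifnk was read in 4 wells. The interferon gamma receptor genes Ifngr2 and Ifngr1 were read in 84.9% and 79.4% of the wells, and the type I receptor genes Ifnar2 and Ifnar1 in 73.3% and 65.1%. Ifnlr1, the specific chain of the interferon lambda receptor, was read in 1.93%. The kinase gene Jak1 was read in 87.6% of the wells. The transcription factor genes Stat2 (28.1%), Irf9 (30.4%) and Irf7 (17.2%), the last of which amplifies the type I response, were read less often than Jak1. Nlrc5, the transactivator of class I genes, was read in 4.40% of the wells, although its targets B2m and H2-D1 were read in nearly all of them.

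The 4 populations were compared by the share of wells with a read and by summed reads. Reads were summed per tumor and population, which gave 8 libraries, and fitted with edgeR's quasi-likelihood test over 11715 genes with a mean of at least 1 RPKM. All 9 genes passed that filter. Fold changes are on the log2 scale. Their standard error is the absolute log2 fold change divided by the square root of the F statistic of the test. The p-values are adjusted by Benjamini-Hochberg over all genes. Levels of summed reads are CPM, normalized counts scaled to the same library total. A higher sum can come from more wells with a read or from more reads in each. An exact permutation test of a share in 2 tumors against 2 cannot give a two-sided p below 0.333, so that none was used.

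In mCAF-like wells, which are rich in matrix genes, the on-off genes were read in a larger share of wells than in the vCAF-like population in both tumors, but no fold change passed the test. Isg15 was read in 24 of 77 mCAF-like wells of tumor 1 (31.2%, 21.1 to 42.7) and 21 of 67 of tumor 2 (31.3%, 20.6 to 43.8), against 33 of 261 (12.6%, 8.87 to 17.3) and 43 of 234 (18.4%, 13.6 to 23.9) vCAF-like wells. The intervals were apart in tumor 1 and overlapped in tumor 2. The mCAF-like wells were deeper, with a median of 276162 reads against 191264, and in thinned wells Isg15 was read in 28.0% and 26.9% against 10.6% and 16.7%. Ifit3 was read in 13% and 10.4% of mCAF-like wells against 3.07% and 5.98%, and Ifit1 in 7.79% and 16.4% against 2.3% and 5.98%. In thinned wells the shares were 9.33% and 8.96% against 2.85% and 6.02% for Ifit3, and 6.67% and 13.4% against 1.22% and 5.09% for Ifit1. Epithelial markers were also read in more mCAF-like wells, 33.8% and 34.3% against 14.9% and 23.5%, and so were immune markers, 33.8% and 23.9% against 24.5% and 17.5%. Endothelial markers were read in 2.60% and 7.46% against 6.51% and 5.98%. The part of these markers in the shares was not tested.

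The summed Isg15 level was 59.2 and 75.1 CPM in mCAF-like wells of tumors 1 and 2 and 7.65 and 32.2 in vCAF-like wells. The ranges did not overlap, and the log2 fold change of 1.75 ± 1.62 had an adjusted p of 0.81 by edgeR. For Ifit1 the levels were 59.6 and 49.8 against 2.72 and 19.7, with a log2 fold change of 2.29 ± 2.13 (adjusted p = 0.813, edgeR), and for Ifit3 24.3 and 22.3 against 3.08 and 12.2, with 1.61 ± 1.52 (adjusted p = 0.818, edgeR). These sums rested on few wells. A single well held 48.1% and 39.3% of the mCAF-like Ifit1 reads of tumors 1 and 2, 64.8% and 55.1% of the Ifit3 reads and 31.8% and 39.9% of the Isg15 reads. In vCAF-like wells a single well held 66.0% and 37.5% of the Ifit1 reads. In tumor 1 alone the log2 fold changes of Isg15 and Ifit1 were 2.94 and 4.44, and in tumor 2 alone 1.22 and 1.34. With the tumor as a term in the fit, Isg15 had 2.43 ± 1.28, Ifit3 1.70 ± 1.73 and Ifit1 3.86 ± 1.87. The adjusted p-values were then 0.493, 0.841 and 0.437 (edgeR). The standard errors of both fits leave the size of these differences, and their direction, uncertain. Without the term the other 6 genes had log2 fold changes from -0.18 (Slfn5) to 0.20 (Tap1), that of B2m being 0.07 ± 0.26. H2-K1 was higher in the mCAF-like wells of tumor 1 by 0.33 and lower in those of tumor 2 (-0.12). None of the 9 genes was called at an adjusted p under 0.05, where 5.24% of all genes tested were called by edgeR, or at an unadjusted p under 0.05, which 15.7% of all genes had. DESeq2 called 0 as well, against 11.6% of all genes. Without wells holding at least 100 CPM of immune, endothelial or epithelial markers, 0 were again called by edgeR, and the log2 fold changes were 1.99 for Isg15 (adjusted p = 0.849, edgeR), 1.69 for Ifit3 (0.922) and 2.35 for Ifit1 (0.899). Tap1 was read in 37.7% and 46.3% of mCAF-like wells against 27.2% and 26.5% of vCAF-like wells, and in thinned wells in 29.3% and 38.8% against 26.0% and 25.5%.

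**Figure D4:**
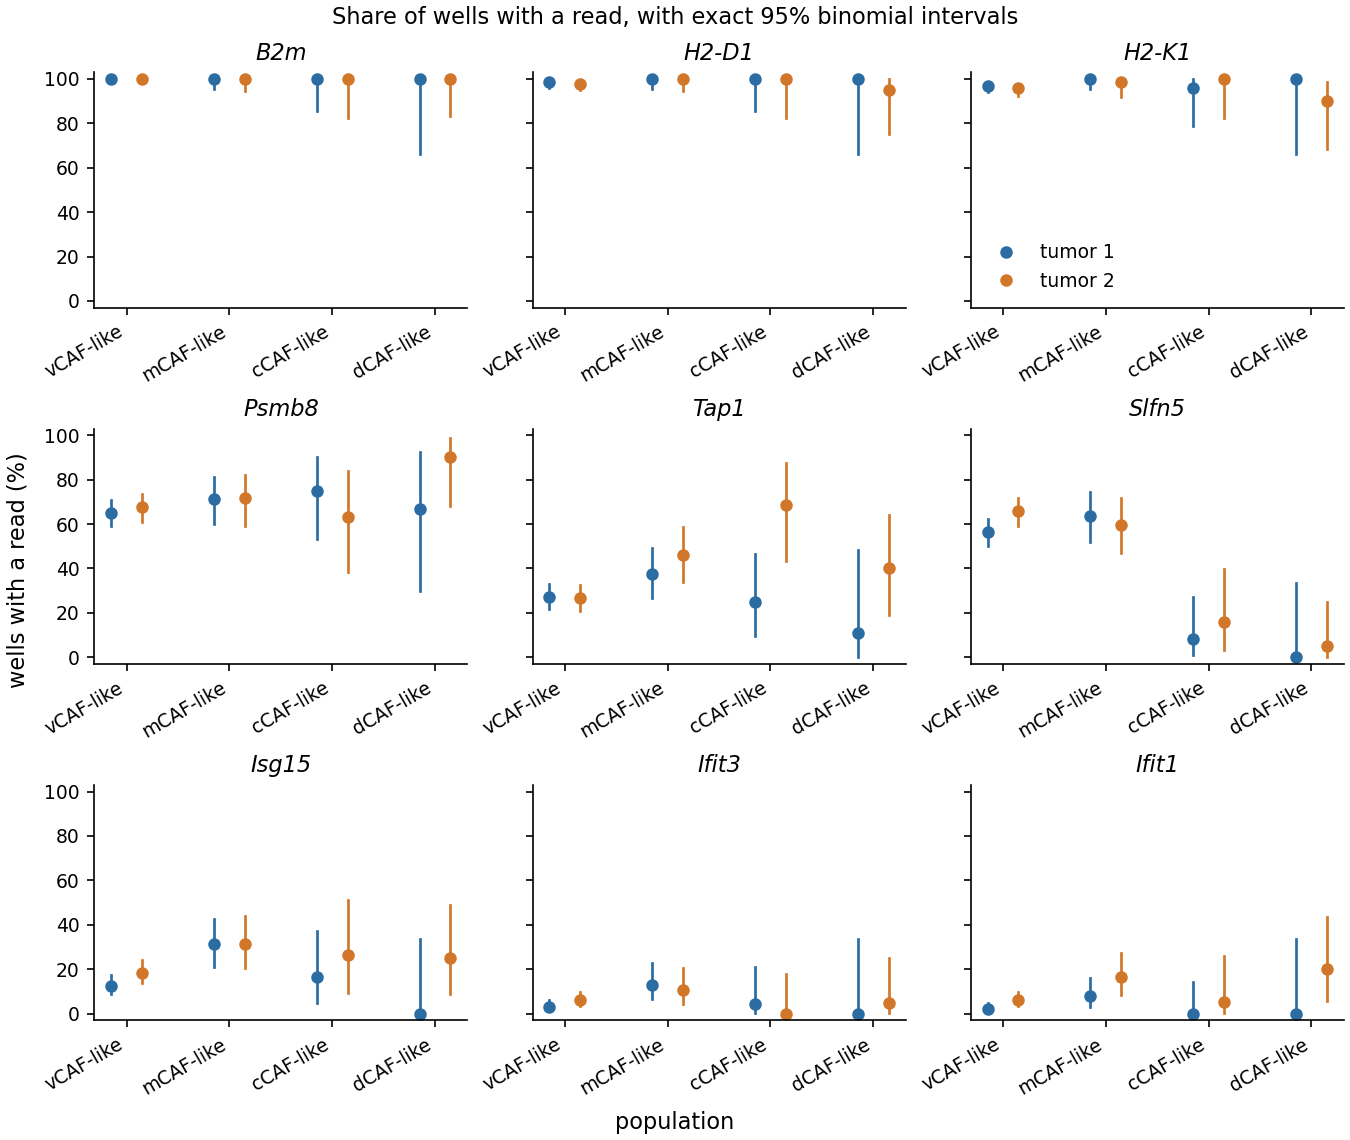
Share of wells with a read of each gene (vertical axis, %) by population, for tumor 1 (blue) and tumor 2 (orange), with exact 95% binomial intervals that cover counting error over wells. Slfn5 falls from 56.3% and 65.8% of vCAF-like wells to 8.33% and 15.8% of cCAF-like and 0% and 5.00% of dCAF-like wells, while B2m is at 100% in every population.

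In the cycling cCAF-like wells Slfn5 was rarely read. It was read in 2 of 24 wells of tumor 1 (8.33%, 1.03 to 27) and 3 of 19 of tumor 2 (15.8%, 3.38 to 39.6), against 147 of 261 (56.3%, 50.1 to 62.4) and 154 of 234 (65.8%, 59.3 to 71.9) vCAF-like wells. The intervals were apart in both tumors. The median depth was 283597 and 198206 reads in cCAF-like wells against 194866 and 190344, and in thinned wells Slfn5 was read in 8.70% and 11.1% against 52.0% and 61.6%. The summed level was 9.29 and 4.98 CPM against 99.3 and 136. The log2 fold change of -4.03 ± 1.01 had an unadjusted p of 0.00532 and an adjusted p of 0.165 by edgeR, and DESeq2, which called 6.85% of all genes, gave an adjusted p of 0.000466. By edgeR 0 of the 9 genes were called and 1, Slfn5, had an unadjusted p under 0.05, where 0.35% of all genes tested were called and 12.5% had an unadjusted p under 0.05, and with the tumor as a term 5 genes of all those tested were called in place of 41. Tap1 was read in 25.0% of cCAF-like wells of tumor 1 and 68.4% of tumor 2 (9.77 to 46.7 and 43.4 to 87.4), with overlapping intervals. The class I genes had log2 fold changes from -0.38 ± 0.24 (H2-D1) to -0.07 ± 0.26 (B2m) and Psmb8 0.52 ± 0.27. Ifit1 and Ifit3 were read in 1 well each. Endothelial markers were read in 29.2% and 15.8% of cCAF-like wells against 6.51% and 5.98% of vCAF-like wells, immune markers in 25.0% and 5.26% against 24.5% and 17.5%, and epithelial markers in 12.5% and 21.1% against 14.9% and 23.5%. Without wells holding at least 100 CPM of these markers the log2 fold change of Slfn5 was -3.94 (adjusted p = 0.0782, edgeR). The part of the endothelial markers on their own was not tested.

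In the dCAF-like wells Psmb8 rose and Slfn5 fell relative to vCAF-like wells. Psmb8 was read in 6 of 9 wells of tumor 1 (66.7%, 29.9 to 92.5) and 18 of 20 of tumor 2 (90%, 68.3 to 98.8), against 65.1% (59.0 to 70.9) and 67.5% (61.1 to 73.5) of vCAF-like wells, so that the intervals overlapped in both tumors. Its summed level was 214 and 317 CPM against 97.4 and 115, and 1 of the 9 wells held 39.9% of the reads of tumor 1. The log2 fold change was 1.33 ± 0.27 (adjusted p = 0.025, edgeR), and 1.12 and 1.47 in the tumors taken singly. Slfn5 had 0 reads in the 9 wells of tumor 1 and 26 reads, all from 1 of 20 wells, in tumor 2, a level of 5.96 CPM against 99.3 and 136 in vCAF-like wells. Its log2 fold change was -5.17 ± 1.09 (adjusted p = 0.0279, edgeR). These 2 genes were called where 10.9% of all genes tested were, 3.56% as higher and 7.3% as lower. Psmb8 lost its call when wells were scaled to the same total before summing (adjusted p = 0.0619, edgeR), and Slfn5 lost it with ERCC reads as library size (adjusted p = 0.0572, edgeR). Epithelial markers were read in 8 of the 9 and 16 of the 20 dCAF-like wells, at up to 11976 CPM, with all 6 markers present in both tumors, against 14.9% and 23.5% of vCAF-like wells. Immune markers were read in 33.3% and 40.0% of dCAF-like wells against 24.5% and 17.5%, and endothelial markers in 11.1% and 10.0% against 6.51% and 5.98%. Without the wells holding at least 100 CPM of immune, endothelial or epithelial markers, a choice made after seeing the data, 4 and 10 dCAF-like wells were left. The log2 fold change of Psmb8 was then 1.37 (adjusted p = 0.0201, edgeR), and Slfn5, with no read left, had an adjusted p of 0.00215.

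The other 7 genes were not called in dCAF-like wells. H2-K1 stood at 832 and 853 CPM against 514 and 686 in vCAF-like wells, a log2 fold change of 0.49 ± 0.21 (adjusted p = 0.211, edgeR), while H2-D1 had -0.45 ± 0.24 and B2m -0.39 ± 0.26. Isg15, Ifit3 and Ifit1 had no read in the 9 wells of tumor 1, which allows shares of up to 33.3% of wells, and were read in 5, 1 and 4 of the 20 wells of tumor 2.

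**Figure D5:**
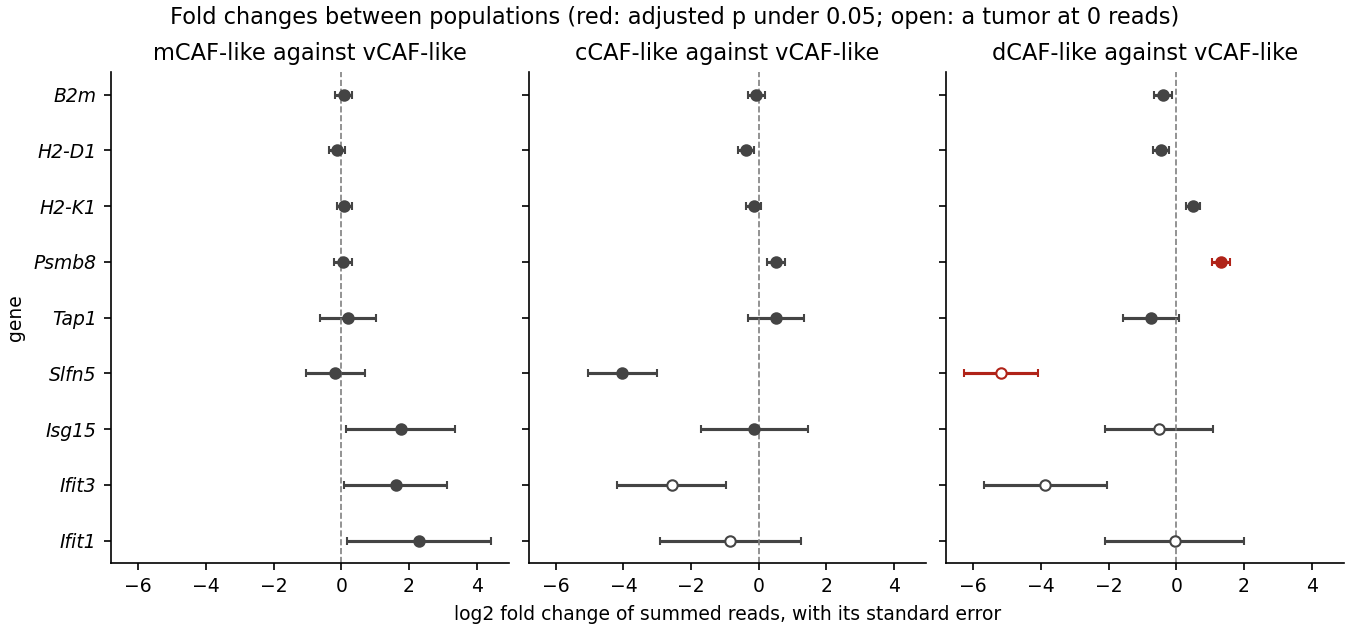
Log2 fold change of summed reads (horizontal axis) with its standard error for each gene in mCAF-like, cCAF-like and dCAF-like against vCAF-like wells, from the edgeR fit of 8 libraries. Red marks an adjusted p under 0.05, which Psmb8 (1.33) and Slfn5 (-5.17) reached in dCAF-like wells, and open circles mark genes with 0 reads in 1 tumor of the population.

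Other genes of the pathways were counted by list. In mCAF-like wells 2 of 20 tested genes of class I presentation rose, with a list median of 0.32 against -0.02 for all genes, where 2.81% of all genes tested were called higher and 2.43% lower. They were Tapbp, encoding tapasin of the peptide-loading complex (1.34 ± 0.26, adjusted p = 0.0321, edgeR), and the chaperone gene Calr (0.84 ± 0.18, adjusted p = 0.0456, edgeR), and both lost their call with the tumor as a term (adjusted p = 0.0512 and 0.057). Of 42 other type I interferon genes 1 rose, with a list median of 0.52, and 7 had an unadjusted p under 0.05, as had 15.7% of all genes tested. This was Ifi205, of the interferon-inducible p200 family, read in 74.0% and 59.7% of mCAF-like and 5.36% and 4.27% of vCAF-like wells (6.08 ± 1.06, adjusted p = 0.0319, edgeR). Of 26 tested genes of interferon signaling the receptor gene Ifngr1 rose (1.42 ± 0.30, adjusted p = 0.0415, edgeR) and the transcription factor gene Irf8 fell (-7.35 ± 1.09, adjusted p = 0.0199, edgeR). Of 14 interferon gamma genes 0 were called by edgeR and 1 had an unadjusted p under 0.05.

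In cCAF-like wells no gene of the 4 lists was called by edgeR, with 0, 8, 2 and 3 genes of class I presentation, type I response, gamma response and signaling at an unadjusted p under 0.05 and list medians of -0.16, -0.45, -1.18 and -0.47 against -0.05 for all genes, of which 12.5% had an unadjusted p under 0.05. In dCAF-like wells 3 of 20 genes of class I presentation rose, with a list median of 0.48 against -0.09 for all genes, 3.56% of which were called higher. These were Erap1, which trims peptides (2.10 ± 0.38, adjusted p = 0.0169, edgeR), Tapbp (1.42 ± 0.26, adjusted p = 0.0161, edgeR) and the proteasome activator gene Psme1 (0.94 ± 0.23, adjusted p = 0.0455, and 0.0697 with the tumor as a term). Of 42 type I interferon genes 9 fell and 0 rose, with a list median of -1.01, where 7.3% of all genes tested were called lower and 3.56% higher. Ifi203 and Ifi204 of the p200 family had no read in the 29 dCAF-like wells and were at least 176-fold and at least 48.3-fold lower, with a floor of 3 reads over the population. Ifitm3 fell from 1650 and 1809 to 652 and 394 CPM (-1.73 ± 0.27, adjusted p = 0.00952, edgeR). Ifitm1 and Ifitm2, the exonuclease gene Isg20, Phf11d, Slfn9 and Ifit2 fell as well, the last with an adjusted p of 0.0779 with the tumor as a term. Of 26 signaling genes Tlr3, a sensor of double-stranded RNA, rose (2.44 ± 0.58, adjusted p = 0.0413, and 0.0706 with the tumor as a term), while the receptor gene Il10rb, the sensor gene Ifih1 and Irf8 fell. Of 14 gamma genes Tgtp2 fell (adjusted p = 0.0219, and 0.0514 with the tumor as a term). The genes of the dCAF-like comparison were named after their values had been seen.

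Over vCAF-like wells the genes whose levels went most closely with each of the 9 were sought by the rank correlation of log2(RPKM + 1), averaged over the tumors (261 and 234 wells), among genes read in at least 5% of the wells of each. B2m went most closely with H2-D1 (0.44 in tumor 1 and 0.58 in tumor 2), H2-K1 (0.38 and 0.49), C920025E04Rik, H2-Q2 and Ctsk. H2-K1 went with C920025E04Rik (0.63 and 0.70), H2-D1, H2-Q4, B2m and H2-Bl, and H2-D1 with H2-Bl, H2-Q4, B2m, H2-Q2 and H2-K1, several of which are heavy chains that share sequence with them. Psmb8 went with H2-K1 (0.24 and 0.25), Iigp1, H2-D1, Ifitm3 and B2m. Isg15 went with Rtp4 (0.18 and 0.39), Gbp3, Irf7, Phf11d and Ddx60, Ifit3 with Isg15 (0.08 and 0.38), Eif2ak2, Irf7, Stat2 and Mnda, and Ifit1 with Rtp4 (0.38 and 0.35), Isg15, Irf7, Parp12 and Mnda. The nearest gene to Slfn5 was Col4a2 (0.34 and 0.19), followed by Gdpd3, Pdgfrb, Tspan4 and Dock10, none of them on the lists of interferon genes. Tap1 had the weakest neighbors, led by Fam213a (0.17 and 0.28), Sp110, Psma5, Trpc4ap and Romo1. All wells of a tumor share a plate. With the number of endogenous reads the 9 genes had rank correlations from -0.03 (Ifit1 in tumor 2) to 0.22 (Psmb8 in tumor 1) over the same wells.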

How the data were processed

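Single cells were sequenced by Smart-seq2. The authors aligned reads to mm10 with STAR and deposited counts of reads per RefSeq gene and RPKM values, which are scaled to reads including the spike-ins. From the counts, wells with at least 10000 endogenous reads were kept, shares and exact binomial intervals were computed (scipy 1.17.1), and reads were summed per tumor and population for edgeR 4.0.16 (TMM, quasi-likelihood). DESeq2 1.42.0 was an alternative. Populations came from t-SNE (Rtsne 0.17, perplexity 27, lowest cost of 50 runs) on 549 variable genes, without the interferon and class I lists, and DBSCAN (eps 2.5). Cycling wells stayed within the vCAF-like cluster there and were separated at eps 1.9, a choice made after the clusters were seen. The 9 genes and the lists were chosen with earlier results of these data known. All 9 genes were analyzed throughout. Named beside them are up to 4 called genes of each list by fold change in the mCAF-like comparison, and 5 nearest genes by correlation. Libraries of a tumor come from 1 animal, and their deviations correlated at 0.0142 to 0.161 over 6 pairs of populations. In data simulated for the mCAF-like comparison (11715 genes), 65 of 100 genes changed 16-fold and 19 of 100 changed 4-fold were called. The simulated spread was that fitted to genes of the same level, without a tumor effect. Reads concentrated in single wells, as for the on-off genes, were not simulated.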

Additional observations from a re-analysis of the deposited data

How the results depend on the processing

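Whether a gene was read in at least 90% (3 genes) or in fewer than 10% (2 genes) of the wells of both tumors kept its count in all 9 alternatives tried for each, including thinning, thresholds of 2 reads or 10 RPKM and each tumor alone. The shares and levels themselves did move. Of the shares of wells with a read, 21 moved by more than the SD between tumors and 60 did not, with 5 genes moved at 2 reads and 5 at 10 RPKM, where Slfn5 stood at 35.1% in place of 54.5%. Of the mean levels on the log2 scale 23 moved and 31 did not. Both counts of unmoved values include each tumor taken alone, which with 2 tumors cannot move by more than their SD. Among the shares these were 9 without tumor 1 and 9 without tumor 2. In mCAF-like wells 0 of the 9 genes were called in every alternative run. In cCAF-like wells the count of called genes was 1 (Slfn5) with DESeq2, the cause was not tested, and 0 in the other alternatives. In dCAF-like wells it was 1 when each well was scaled to the same total (Psmb8 then had an adjusted p of 0.0619) and 0 at an adjusted p of 0.001. With ERCC reads as library size it was again 2, but these were Psmb8 and H2-K1 (adjusted p = 0.0497) in place of Slfn5 (adjusted p = 0.0572), and the median of all genes moved to 0.81, 0.70 and 0.60 in the 3 comparisons. With the tumor as a replicate block 0, 0 and 2 of the 9 genes were called in mCAF-like, cCAF-like and dCAF-like wells, Psmb8 at an adjusted p of 0.0419 and Slfn5 at 0.0479, and no call of the 9 genes changed. Over all genes in cCAF-like wells, 41 were called, against 5 with the block, 802 with DESeq2, 180 without a filter on low genes, 20 with filterByExpr, 196 with ERCC reads as library size, 66 with wells scaled to the same total, 26 with Leiden populations and 20 without wells holding markers of other cells. In mCAF-like wells 614 were called, against 1357 with DESeq2, 1162 with ERCC reads and 394 without wells holding markers, and in dCAF-like wells 1272, against 2339 with DESeq2. Leaving out a tumor left no residual spread, so that fold changes were computed and not tested. Having 2 tumors, shallow wells and reads without molecular identifiers limit what could be detected for genes at 0 in most wells.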
